A study of Brassica napus with 18 samples.

Results

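R5159 and R4210 are field-grown accessions of oilseed rape (Brassica napus), and their shoot apices were compared by poly(A)-selected RNA sequencing with 3 libraries each. R5159 carries haplotype 1 and R4210 haplotype 2 of BnaC3.LFY, the chromosome C03 copy of LEAFY. The comparison used 6 of the 18 libraries of the series and the 58143 of 107233 gene models that passed a filter on low counts. The pair was picked because, of the 9 pairs of accessions across the haplotypes, it had the most differing genes. That count is therefore a description. The other haplotype 1 accessions are R5044 and R5161, and the other haplotype 2 accessions are R4168 and R4817, again with 3 libraries each. No treatment is named in the labels, and each haplotype was measured in different accessions, so the haplotype cannot be told apart from the rest of an accession's genome.

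LEAFY is a plant transcription factor that gives young meristems on the flank of the shoot apex their floral identity. Oilseed rape arose from a cross of a turnip-like A-genome parent with a cabbage-like C-genome parent, and it keeps an A and a C chromosome set whose matching chromosomes are called homoeologues. Exchange between homoeologues is known in oilseed rape and can leave a stretch of one chromosome missing and its partner present in extra copies. DNA was not analysed here, so such exchange was not tested as a source of any difference.

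Total counts were 29541108, 25849576 and 32389562 in the R5159 libraries and 30300066, 23318589 and 27224547 in the R4210 libraries. Across libraries of a single accession, log2 CPM (counts scaled to a common library total, CPM) correlated at 0.937 to 0.957 in R5159 and at 0.953 to 0.974 in R4210, against 0.675 to 0.728 between R5159 and R4210 libraries. Pearson correlations are meant here, across genes, which are not independent replicates. The lowest correlation within any accession was 0.874, in R4817. The identifiers name a chromosome and a running gene number, and 0 of 107233 matched the RefSeq gene table, so genes have no symbols here, the copies of LEAFY were not analysed here and the tissue label could not be checked against marker genes. Whether an accession's libraries stem from different plants is not stated in the labels, so p-values measure only the spread between these libraries, which may be technical. In bulk apices, fewer cells of a type and less RNA per cell cannot be told apart.

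The apices of R5159 and R4210 differed in a large share of the tested gene models. Transcripts of 30933 genes differed (53.2% of those tested), of which 15322 were higher (26.4%) and 15611 lower (26.8%) in R5159, by edgeR's quasi-likelihood test at a Benjamini-Hochberg adjusted p under 0.05. The change was 2-fold or more for 10342 genes with higher levels in R5159 (17.8% of those tested) and 12155 with lower levels (20.9%). It was 8-fold or more for 3759 genes with higher (6.47%) and 5918 with lower levels (10.2%), so strong differences more often ran downward in R5159. The 3 libraries of R5159 lay wholly above the 3 of R4210 in 16086 tested genes (27.7%) and wholly below them in 18211 (31.3%), 59% together, whatever the p-value. In the other 8 pairs across the haplotypes the count of differing genes ranged from 24241 to 30425. The pairs that include R4210 had the 3 highest counts, with 30933 against R5159, 30425 against R5161 and 28909 against R5044. With every library thinned to 21960992 counts, the pair had 30284 differing genes and the other 8 pairs had 23613 to 29669.

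For most of the genes called in the pair, the means of the other accessions differed in the same direction, but the single accessions lay apart by haplotype for fewer of them. The mean of R5044 and R5161 was contrasted with the mean of R4168 and R4817, which uses no library of the pair. That contrast called 32030 genes (55.1%), 14688 higher (25.3%) and 17342 lower (29.8%) in haplotype 1. Of the 30933 genes of the pair, 19311 (62.4%) were called in the same direction, 2392 (7.73%) in the opposite direction and 9230 were not called. Among the 27210 genes not called in the pair, 25.3% were called in the direction of the pair's small difference and 11.8% against it. By direction, 58.7% of the genes higher in R5159 and 66.1% of the lower ones were called again, in a contrast that called more lower than higher genes. The share called in the same direction depended little on the size of the pair's difference. It was 59.5% for called genes under 2-fold, 64.4% from 2-fold to under 8-fold and 62.4% at 8-fold and above. The median log2 fold change in the pair's direction was 1.72 in the pair and 0.76 in the other accessions. The genes were selected on the pair's difference and the other contrast averages accessions, so these medians are a description.

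**Figure D1:**
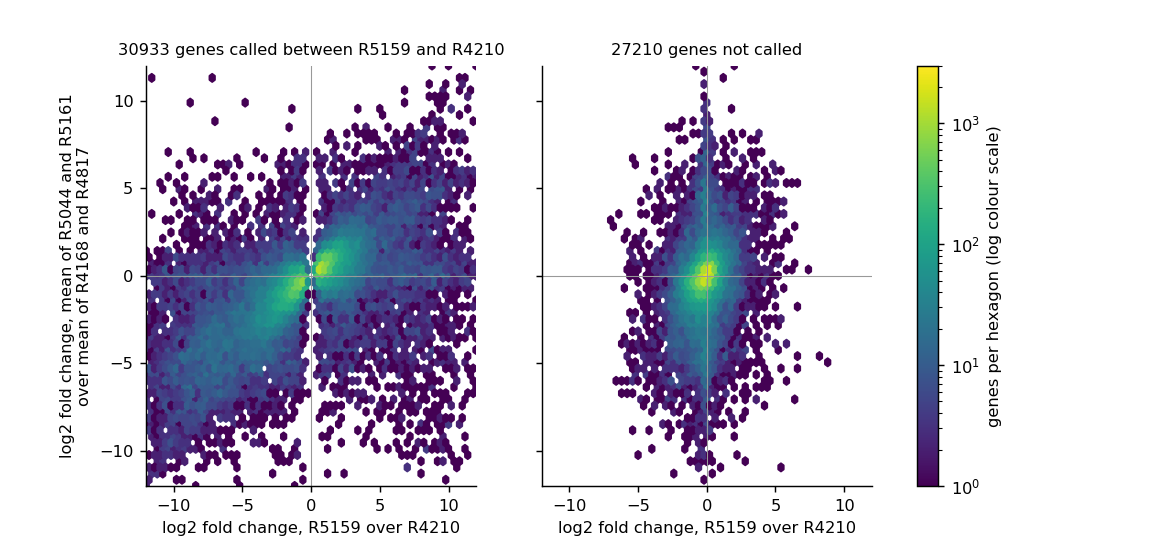
Log2 fold changes of R5159 over R4210 (x axis) and of the mean of R5044 and R5161 over the mean of R4168 and R4817 (y axis) for called genes (left) and genes not called in the pair (right), with the number of genes per hexagon as colour on a log scale and values beyond 12 left out. Most called genes lie to the lower left and upper right, and 2392 were called in opposite directions.

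For each called gene, the accession means of log2 CPM were then placed relative to the midpoint between R5159 and R4210. A gene was called shared when the contrast of the other accessions passed in the same direction, R5044 and R5161 both lay on R5159's side, and R4168 and R4817 both lay on R4210's side. This held for 10325 genes (33.4% of those called), 4715 higher and 5610 lower in R5159. In another 8986 genes (29.0%) the other accessions differed in the same direction on average but at least 1 of them lay on the far side of the midpoint. Most often that accession was R4168 alone, in 2584 genes (28.8% of the 8986), or R4817 alone, in 2071. For shared genes, which the definition ties to both contrasts, the median log2 difference was 1.64 in the pair and 1.44 in the other accessions. All 4 other accessions lay on the side of their own haplotype for 10680 called genes (34.5%), 3 of them did for 10667 and 2 or fewer for the rest. Singly, R5044 lay on R5159's side in 77.4% and R5161 in 75.5% of the called genes, while R4817 lay on R4210's side in 72.6% and R4168 in 68.8%. Among genes not called in the pair, all 4 lay on the side of their own haplotype in 14%. There R5044 lay on R5159's side in 56.2% and R5161 in 57.7%. R4817 lay on R4210's side in 59.7% of these uncalled genes and R4168 in 60.5%.

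A smaller set was private to the pair, and more of it was higher than lower in R5159. A gene was called private when the difference of differences, the pair's fold change over that of the other accessions, passed in the pair's direction while the other accessions were not called in that direction. The difference of differences itself was called in 14013 genes (24.1% of those tested), upward in 8050 (13.8%) and downward in 5963 (10.3%). Private genes numbered 6656 (21.5% of those called), 3913 higher and 2743 lower in R5159. Of these, 2392 were called in the opposite direction in the other accessions, 1513 with higher and 879 with lower levels in R5159. R4210 stood alone, with all 4 other accessions on R5159's side, in 1334 private genes (20.0%), and R5159 stood alone in 1082 (16.3%). In most private genes, 4193 (63%), neither stood alone and the 4 other accessions were split in some other way than by haplotype. Private therefore does not mean that R5159 or R4210 differed from all other accessions. Among the 4193 were 497 genes (7.47% of the private genes) in which the haplotypes crossed over. There R4168 and R4817 lay on R5159's side and R5044 and R5161 on R4210's. In 47 private genes all 4 lay on the side of their own haplotype. The remaining 4966 called genes (16.1%) met neither definition, and their median of 3.09 CPM over the pair was lower than the 8.60 CPM of shared and the 6.35 CPM of private genes.

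**Figure D2:**
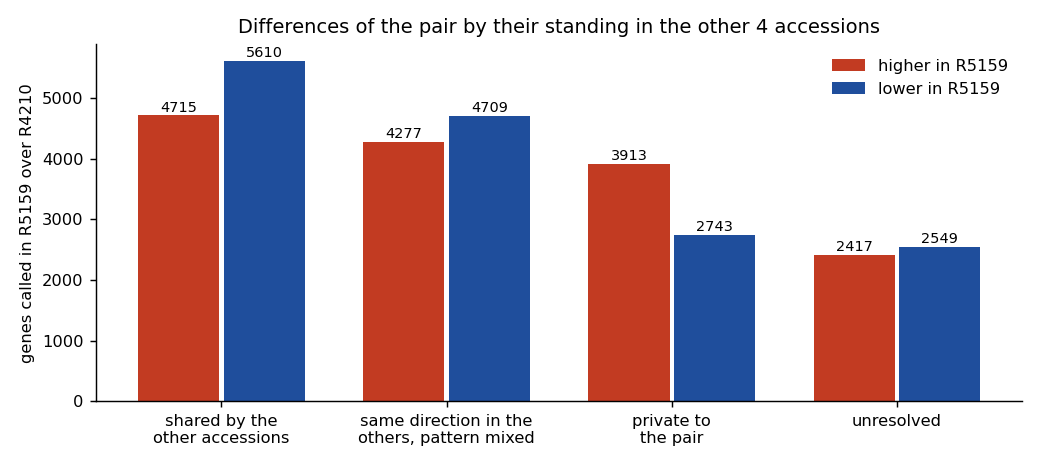
Number of genes called in R5159 over R4210 (y axis) by how they stood in the other 4 accessions (x axis), with genes higher in R5159 as red and lower as blue bars. Lower genes outnumber higher ones among shared differences (5610 and 4715), and higher genes outnumber lower ones among private differences (3913 and 2743).

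Each side of the pair also differed from its sister accessions. R5159 differed from the mean of R5044 and R5161 in 11973 genes (20.6%), 7016 higher (12.1%) and 4957 lower (8.53%). R4210 differed from the mean of R4168 and R4817 in 11428 genes (19.7%), 5591 higher (9.62%) and 5837 lower (10%). These contrasts share libraries with the pair's own and were not used to count overlaps. The share of genes called in the pair grew with transcript level, at 40.6%, 52.6%, 57.4% and 62.2% over 4 equal bins of tested genes from low to high mean CPM. The median size of a called difference was smaller along the same order, at 5.08, 2.25, 1.26 and 0.98 on the log2 scale. Shared genes made up 26.4% of the called genes in the lowest and 39.3% in the highest bin.

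Private differences were unevenly spread over the chromosomes. On the C chromosomes 2325 private genes were higher and 1031 lower in R5159, while on the A chromosomes 1574 were higher and 1699 lower. The excess of higher private genes was thus not found on the A chromosomes. On C09, 739 of 2008 called genes were private (36.8%), against 21.5% over all called genes, and 630 of them were higher in R5159. A01 followed with 470 of 1553 (30.3%), 282 of them lower, and A09 with 575 of 2204 (26.1%), 393 of them lower. C06 had the smallest share, with 204 of 1335 (15.3%). C03, which carries the LEAFY copy that defines the haplotypes, had 2568 of 4778 tested genes called (53.7%), near the 53.2% of all tested genes, and 17.1% of those were private. C02 had the largest share of lower genes, with 1305 of 3006 (43.4%), and A02 the largest share of higher genes, with 900 of 2476 (36.3%).

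To locate the differences, each chromosome was scanned in windows of 100 gene numbers, each holding 15 or more tested genes. Of 970 windows, 68 had a median log2 fold change of at least 1 in size after centring on all tested chromosome genes, and they joined into 27 segments, 12 of them at least 2 windows long. The windows were chosen by the pair's own difference, so the pair's values in them carry no test. Of the tested chromosome genes 6.92% lay in these windows, as did 10.3% of the called genes and 22.1% of those called at 8-fold or more. Inside them 39.7% of the called genes were private and 21.0% shared, against 19.4% and 34.9% outside.

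**Figure D3:**
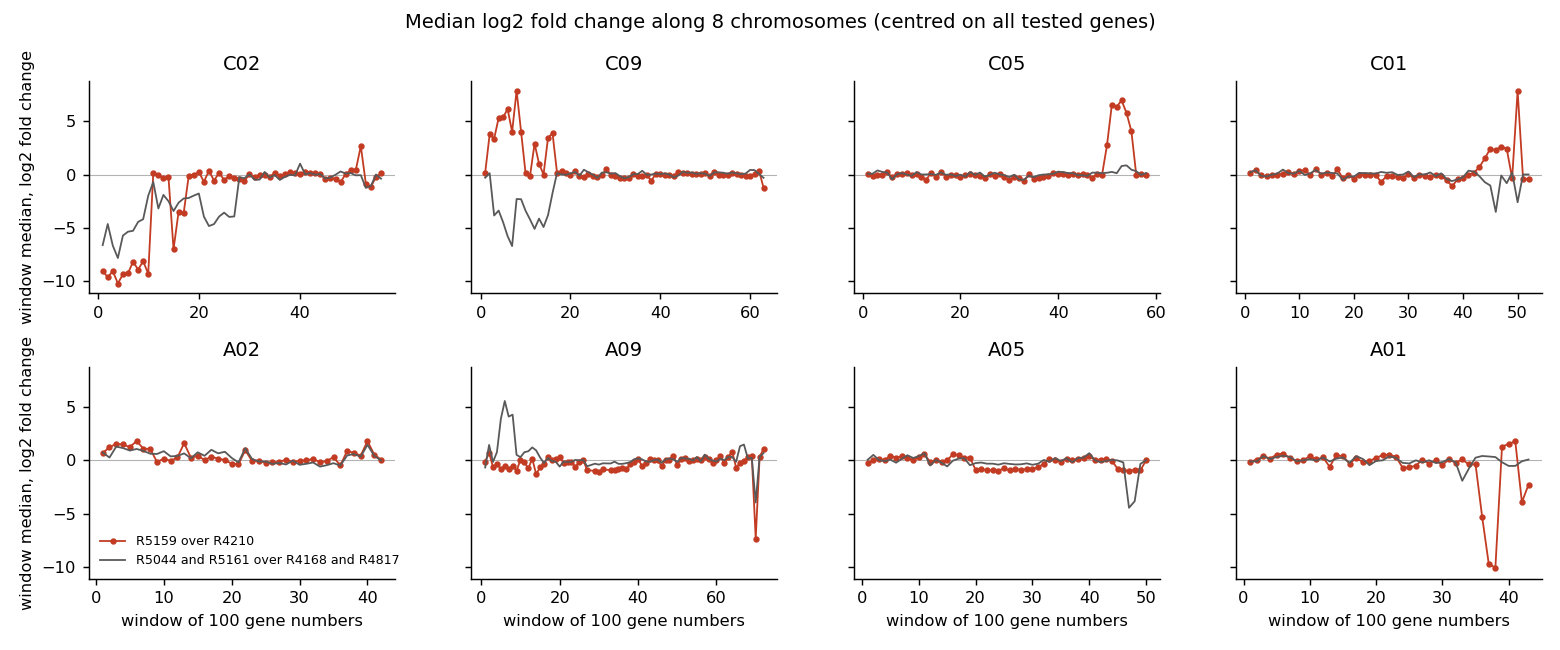
Median log2 fold change per window of 100 gene numbers (y axis, centred on all tested genes) along 4 C chromosomes and their A homoeologues (x axis, window order), for R5159 over R4210 in red and for the other accessions in grey. The lines run together at the start of C02, run in opposite directions at the start of C09, and only the red line departs far from 0 on C05 and at the end of A01.

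The longest private segment lay near the start of C09, where R5159 was high together with R4168 and R4817, and R4210 was low together with R5161. Genes 101 to 900 of C09 summed to 9755, 10570 and 9980 CPM in the R5159 libraries, against 1267, 1349 and 1361 CPM in the R4210 libraries, a ratio of 7.62. All R5159 libraries lay far above all R4210 libraries. In sum the other accessions ran the opposite way along the haplotypes, with 4332 ± 1310 CPM in R5044 and 1032 ± 36.6 CPM in R5161, against 16610 ± 2450 CPM in R4168 and 9602 ± 490 CPM in R4817 (SD, n = 3 libraries each). A single gene, BnaC09T0049700ZS, gave 7301 CPM of the sum in R4168. The order also changed within the segment. In genes 101 to 200 R5159 had 1395 CPM and R4210 215.0 CPM, while R5044 had 2026 CPM, R5161 249.3, R4168 489.9 and R4817 1349. In genes 801 to 900 R4168 had 28.1 CPM, against 968.1 CPM in R4817. Among the 490 genes tested in the segment, 412 had higher and 16 lower levels in R5159, 346 were private and 4 were shared. The median log2 fold change was 5.16 in the pair and -3.56 in the other accessions. An average of 384.3 gene models reached 1 CPM in R5159 and 149.7 in R4210.

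The difference on C09 was interrupted. In genes 901 to 1000 R4210 was high as well, with a window median of 0.11 in the pair, 947.1 CPM in R5159 and 813.2 CPM in R4210, against 186.4 CPM in R5044 and 48.5 CPM in R5161. R4168 was low in that window, at 61.6 CPM, while R4817 had 850.0 CPM. Genes 1101 to 1300 and 1401 to 1600 were again higher in R5159, with 2341 CPM in R5159 against 1588 CPM in R4210 for the first stretch and 1898 CPM in R5159 against 576.2 CPM in R4210 for the other. In the next window, genes 1601 to 1700, the accessions came together, with 1055 CPM in R5159 and 893 CPM in R4210. On the homoeologue A09, genes 401 to 900 were picked for a shift in the opposite direction. They were lower in R5159, at 6368 ± 160 CPM, against 9897 ± 258 CPM in R4210 (mean and SD, n = 3 libraries each). R5044 and R5161 were near R4210, at 9983 and 9945 CPM, while R4168 and R4817 were below R5159, at 3880 and 5336 CPM. Of 348 tested A09 genes there, 162 were lower and 27 higher in R5159.

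R4210 alone was low over genes 4901 to 5500 of C05. This segment summed to 8035, 7969 and 7815 CPM in R5159, against 978.2, 970.2 and 1016 CPM in R4210. R5044 and R5161 had 9920 and 7782 CPM, and R4168 and R4817 had 6348 and 6631 CPM, so R4210 lay far below all 5 other accessions. Among the 378 genes tested there, 326 had higher and 12 lower levels in R5159, with a median log2 fold change of 5.58 in the pair and 0.39 in the other accessions. On A05, genes 4401 to 4900 were picked for a shift in the opposite direction. They had 5683 ± 150 CPM in R5159 and 10040 ± 194 CPM in R4210 (n = 3 libraries each), and 208 of 361 tested genes were lower in R5159. The C05 and A05 stretches together summed to 13620 ± 262 CPM in R5159 and 11030 ± 192 CPM in R4210.

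R5159 alone was low over genes 3501 to 3800 of A01. The segment summed to 185.7, 161.0 and 174.3 CPM in R5159, against 4264, 5359 and 4826 CPM in R4210. The other 4 accessions had between 2717 CPM in R4168 and 4914 CPM in R5161. Among the 196 genes tested there, 179 had lower and 2 higher levels in R5159, with medians of -8.84 in the pair and 0.32 in the other accessions. The number of gene models at 1 CPM or more averaged 22.3 in R5159 and 163.0 in R4210. Genes 4101 to 4300 of A01 were low in R5159 as well, at 696.6 ± 47.5 CPM, against 3169 ± 150 CPM in R4210. Between these stretches, genes 3801 to 4100 were higher in R5159, at 4263 ± 162 CPM, against 1907 ± 591 CPM in R4210, but R5044 was high there too, with 4477 CPM.

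On the homoeologue C01, the sum over genes 4301 to 4800 was higher in R5159 than in any other accession. The R5159 libraries had 7761, 7540 and 7837 CPM, against 2773, 1098 and 2115 CPM in R4210. R5044 had 4154 CPM, R5161 had 2410, R4168 had 4324 and R4817 had 3181. The R4210 libraries differed among themselves here, and in replicate 2 only 72 gene models reached 1 CPM, against 177 and 163 in replicates 1 and 3. The ratio of R5159 to R4210 was 3.86 with all libraries, 3.16 without R4210 replicate 2 and 4.8 without R4210 replicate 1. The order was different in the first window of the segment. In genes 4301 to 4400 R5159 had 298.4 CPM, below R5044 at 313.5, R4168 at 314.1 and R4817 at 360.9 CPM. R5161 had 258.0 CPM there and R4210 was the lowest, at 95.25 CPM. The A01 segment of genes 3501 to 3800 and this C01 segment together summed to 7886 ± 164 CPM in R5159 and 6812 ± 311 CPM in R4210.

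**Figure D4:**
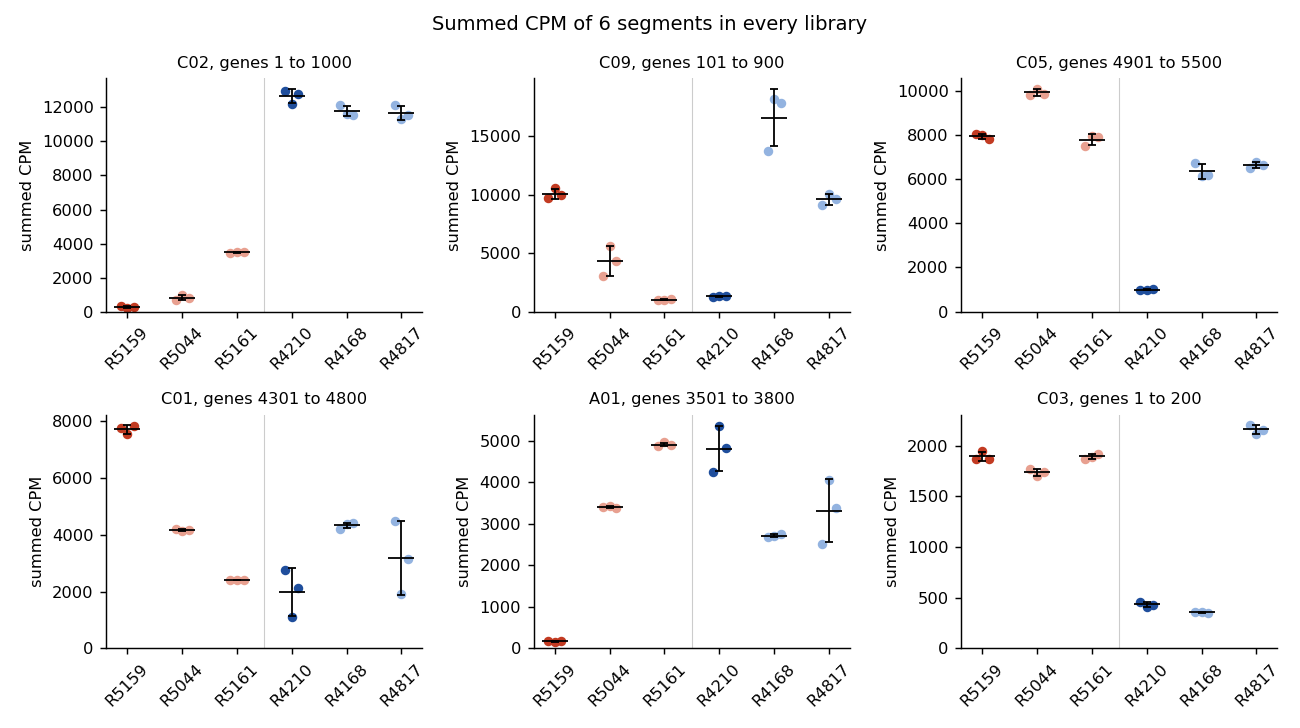
Summed CPM of the gene models of 6 segments (y axis) in every library, by accession (x axis), with haplotype 1 left and haplotype 2 right of the grey line and bars for mean and SD of 3 libraries. R5159 alone is low on A01 and highest on C01, R4210 alone is low on C05, and on C09 R5159 lies with R4168 and R4817.

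The segment with the lowest ratio of R5159 to R4210, 0.022, lay at the start of C02, where all of haplotype 1 was low. Genes 1 to 1000 summed to 333.2, 242.4 and 261.4 CPM in R5159, against 12950, 12190 and 12810 CPM in R4210. R5159 was the lowest of its haplotype, since R5044 had 833.8 CPM and R5161 had 3485 CPM, against 11770 CPM in R4168 and 11670 CPM in R4817. Of 604 tested genes, 569 were lower in R5159, 285 were shared by the strict definition and 14 were private. The homoeologous start of A02, genes 1 to 800, had 21680 ± 1040 CPM in R5159 and 9730 ± 170 CPM in R4210. The C02 and A02 stretches together summed to 21960 ± 1030 CPM in R5159 and 22380 ± 573 CPM in R4210, a ratio of 0.981. In the stretches of C09 with A09, C05 with A05 and A01 with C01 named above, the corresponding ratios were 1.47, 1.24 and 1.16. Other matches on the same chromosomes reused partner stretches, so their sums are not separate matches. A01 genes 4101 to 4300 gave 1.51 with C01 genes 4201 to 4800, which overlap the C01 segment named above. C02 genes 1401 to 1700 gave 1.83 with A02 genes 1 to 800, the partner of C02 genes 1 to 1000. C09 genes 1101 to 1300 and 1401 to 1600 gave 0.795 and 0.884, both with A09 genes 1301 to 1500. C03 with A03 gave 1.19. Homoeologous stretches were matched by chromosome number and relative position, not gene by gene. Only stretches longer than a single window that shifted in the opposite direction were considered as partners. Opposite shifts within a match are therefore a condition of the matching and not a result, and the combined sums carry no test. How reads that match both copies were counted is not given in the sources used here.

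The start of C03 separated R4210 from all of haplotype 1 but not from all of haplotype 2. Genes 1 to 200 summed to 1896 ± 47.4 CPM in R5159 and 433.5 ± 26.5 CPM in R4210 (n = 3 libraries each). R4168 was low like R4210, at 355.9 CPM, and R4817 was high like R5159, at 2162 CPM. Of 123 tested genes, 103 were higher in R5159, yet only 12 were shared by the strict definition. A single window on A09, genes 6901 to 7000, divided haplotype 1 instead. It had 55.2 ± 2.34 CPM in R5159 and 926.5 ± 26.1 CPM in R4210, with R5044 at 55.6 CPM and R5161 at 1143 CPM.

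Some genes were silent in one accession of the pair and expressed in the other. Expressed means that every library of an accession reached 1 CPM, and silent means that its 3 libraries held at most 3 counts in all, which corresponds to 0.0342 CPM in R5159 and 0.0371 CPM in R4210 and covers counting error only. By this rule 760 genes were expressed in R5159 and silent in R4210, and 1435 were silent in R5159 and expressed in R4210. Of the 760 genes, R5044 expressed 514 and R5161 464, while R4168 expressed 331 and was silent in 285, and R4817 expressed 401 and was silent in 137. Of the 1435 genes, R5044 was silent in 726 and R5161 in 599, while R4168 was silent in 120 and R4817 in 144. Full agreement along the haplotypes, with all 4 other accessions silent or expressed by these limits as their haplotype partner in the pair, held for 31 of the 760 and 120 of the 1435 genes. In 397 of the 760 (52.2%) and 944 of the 1435 genes (65.8%) at least 1 other accession lay between the limits. Such genes count neither as full agreement nor as silent in R5159 alone or in R4210 alone.

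Most genes that were silent in R5159 alone or in R4210 alone lay in the segments already described. R4210 alone was silent in 164 of the 760 genes, and 89 of these lay in the C05 segment of genes 4901 to 5500. R5159 alone was silent in 161 of the 1435 genes, with 72 in the A01 segment of genes 3501 to 3800 and 44 in the C02 segment of genes 1 to 1000. In the C09 segment of genes 101 to 900, 118 genes were expressed in R5159 and silent in R4210. R5161 was silent in 68 of these and R5044 in 40, while R4168 expressed 75 and R4817 expressed 86. In the C03 segment of genes 1 to 200, 22 genes were silent in R4210, 20 of which were silent in R4168 and 1 in R4817. All shifted windows together held 42.9% of the 760 and 36.8% of the 1435 genes, against 6.92% of the tested chromosome genes. The windows were chosen by the pair's difference, of which silence in one accession is an extreme. A concentration of silent genes in them is therefore partly a condition of the choice.

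Among single transcripts, the largest absolute difference in each direction is given for shared and for private genes. Only called genes whose R5159 and R4210 libraries did not overlap were eligible. Since the genes were picked by the pair's difference, its fold changes and p-values are a description. BnaC06T0120800ZS was the shared gene with the largest excess in R5159, with 2651, 3245 and 4472 CPM in R5159, against 579.8, 508.8 and 536.9 CPM in R4210. Its log2 fold change was 2.70 ± 0.22 (SE, edgeR adjusted p = 4.47e-08). R5044 had 2549 ± 189 and R5161 2093 ± 246 CPM, against 1204 ± 289 CPM in R4168 and 455.8 ± 94.8 CPM in R4817 (SD, n = 3 libraries each). BnaC06T0428900ZS was the shared gene with the largest deficit, with 1.32, 4.18 and 1.67 CPM in R5159, against 3377, 7923 and 4438 CPM in R4210. Its log2 fold change was -11.11 ± 0.62 (SE, edgeR adjusted p = 3.62e-10). R5044 at 36.9 ± 17.3 CPM and R5161 at 5.25 ± 0.95 CPM were likewise far below R4168 at 2367 ± 310 CPM and R4817 at 3741 ± 1202 CPM.

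The private genes stood differently in the other accessions. BnaC09T0049700ZS, within the C09 segment, had 1365, 1849 and 2034 CPM in R5159, against 47.8, 128.5 and 58.9 CPM in R4210. The log2 fold change of the pair was 4.50 ± 0.61 (SE, edgeR adjusted p = 1.31e-05), while that of the other accessions was -9.53 (edgeR adjusted p = 3.48e-10). R5044 and R5161 had 44.8 ± 26.9 and 0.75 ± 0.198 CPM, against 7301 ± 2814 CPM in R4168 and 2417 ± 1580 CPM in R4817. BnaA03T0212400ZS had 556.1, 489.0 and 666.8 CPM in R5159, against 2333, 1675 and 2055 CPM in R4210. Its log2 fold change was -1.80 ± 0.22 (SE, edgeR adjusted p = 3.66e-06), while that of the other accessions was -0.25 (edgeR adjusted p = 0.163). R4210 stood above all 5 other accessions, which averaged between 364.0 CPM in R5161 and 805.4 CPM in R5044.

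**Figure D5:**
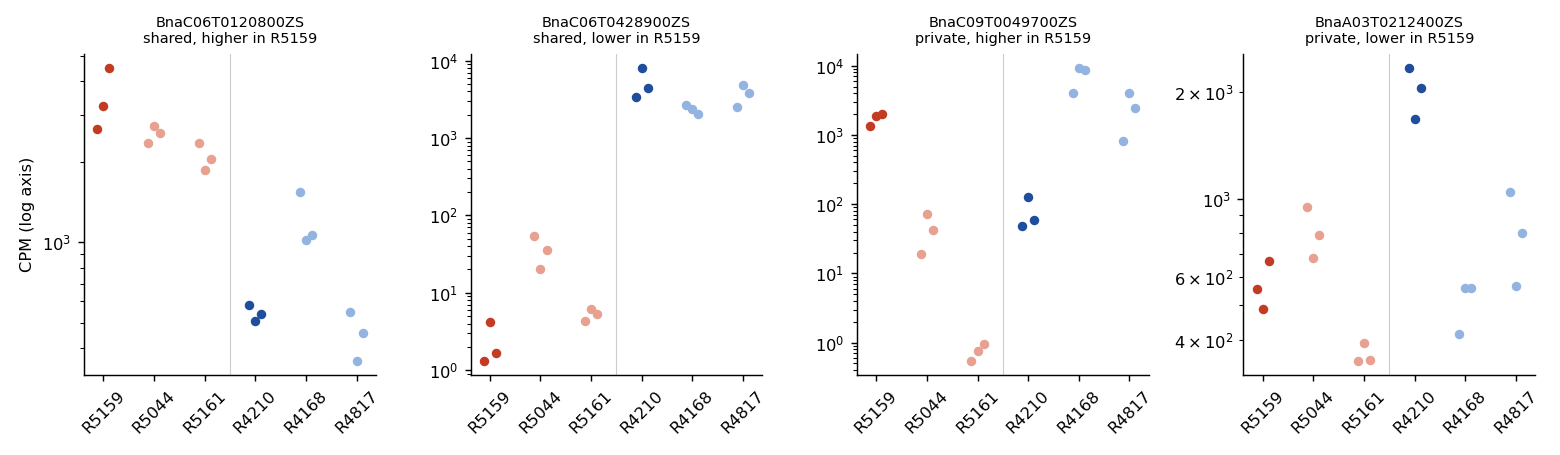
CPM of the 4 named genes (y axis, log scale) in every library, by accession (x axis), with haplotype 1 left and haplotype 2 right of the grey line. The first 2 genes separate the haplotypes, the third is high in R5159, R4168 and R4817, and the fourth is highest in R4210.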

How the data were processed

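Raw counts of 18 poly(A)-selected libraries over gene models, as whole numbers, make up the single table deposited by the authors. Per the submitters' processing notes, HISAT2 2.2.1 and featureCounts were used. Build, annotation, strand setting and the handling of reads that align more than once: not given in the sources used here. Copies of a gene on A and C chromosomes may therefore share reads, which holds for every gene and segment named. Columns were assigned by accession and replicate, 0 columns were identical, and CPM was taken on the total count.

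Genes were kept by filterByExpr by accession and tested with edgeR 4.0.16 in R 4.3.3 (TMM, 1 coefficient per accession, all 18 libraries), with p-values adjusted over all 58143 genes. SEs were derived from the fold change and its F statistic. Side-of-midpoint patterns used log2 CPM with a prior count of 2. Windows were scanned with Python 3.11.15. Alternatives included DESeq2 1.42.0, limma 3.58.1, other scalings and filters, thinning and leaving out libraries.

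Without symbols the rule for named genes allows 2 identifiers in each direction, namely the largest absolute difference in mean CPM among shared and among private genes whose libraries do not overlap. The pair, the class definitions and the windows were chosen with earlier results of these data known. Homoeologous stretches were matched after the scan, using windows with a median of at least 0.5 in the opposite direction.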

Additional observations from a re-analysis of the deposited data

Results flagged for a closer look

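The pair's difference departed from that of the other accessions, R5044 and R5161 against R4168 and R4817, in 14013 genes by the test of the difference of differences (edgeR adjusted p under 0.05).

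For the 4 named genes the difference of differences is a description, since they were chosen for the size of the pair's difference and the private ones also by this test. The log2 fold change of the pair exceeded that of the other accessions by 14.02 for BnaC09T0049700ZS and by 1.07 for BnaC06T0120800ZS. It was lower, with differences of -3.35 for BnaC06T0428900ZS and -1.55 for BnaA03T0212400ZS.

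Summed CPM over 3 stretches of C09 ran one way in every library of the pair and the other way in every library of the other accessions. The ratio of R5159 to R4210 was 7.62 for genes 101 to 900, 1.47 for genes 1101 to 1300 and 3.29 for genes 1401 to 1600. This difference between the pair and the other accessions was not tested on the summed values.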

How the results depend on the processing

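The count of 30933 genes stayed within 1.5 times in all 33 alternatives run, from 22497 with a minimum 2-fold change to 32082 with DESeq2. The number of tested genes changed too, so the called genes were not a majority of those tested in every alternative. The count was 25356 of 51660 tested genes with the 6 libraries of the pair alone and 30477 of 78688 without the low-count filter. Without R4210 replicate 2 it was 27360 of 59936. With 1 library left out it was 27360 to 31995, with 9359 to 10830 shared and 5488 to 7190 private genes. The 10325 shared genes fell to 6317 at a minimum of 2-fold, to 6829 when all 4 single contrasts of the other accessions had to pass and to 3441 with limits set nearer to R5159 and R4210 in place of the midpoint, which are stricter rules by construction. At an adjusted p under 0.01 private genes fell to 4394, the difference of differences to 8806 genes, R5159 against its sisters to 7459 and R4210 against its sisters to 7080. The contrast of the other accessions fell to 18957 genes at a minimum of 2-fold. Shifted windows held 3971 tested genes, and 10141 with a window median of at least 0.5. With expression set at 5 CPM, 264 genes were silent in R4210 and 550 in R5159. Chosen after seeing the data were leaving out single libraries of the other 4 accessions, every alternative for the other contrasts, the other fits for window counts, and leaving out libraries for silent genes and segment ratios. The 4 named genes kept direction and call in all 31 alternatives run for each.

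Same-numbered libraries of R5159 and R4210 did not deviate together (correlations of -0.009, 0.013 and -0.048), so the numbers were not read as pairing the samples. With the replicate block the pair had 30244 differing genes, 10113 shared and 6315 private.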

Other observations

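Libraries of R4210 differed from each other in 8 of 970 windows, by a range of at least 1 between their window medians on log2(CPM + 0.1), and all 8 lay on A01 genes 3901 to 4200 or C01 genes 4301 to 4800. Replicate 2 was the lowest in each of them, by up to 3.41 on C01 genes 4501 to 4600. On A01 genes 3801 to 4100 replicate 2 had 1282 CPM, against 2455 CPM in replicate 1 and 1984 CPM in replicate 3. R4817 had 14 such windows, 4 on A01, 6 on C01, 3 on C09 and 1 on A09. On C01 genes 4301 to 4800 the R4817 libraries had 4482, 1903 and 3158 CPM. R5044 had the most, 33 windows with 28 on C02 and a highest range of 5.41, and R5161 had 24, with 12 on A05 and 8 on A09. R4168 had no such window, and its highest range was 0.93.

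R5159 had 22 such windows, with a highest range of 1.45. A05 held 12 and A09 held 7 of them, and in 21 of the 22 replicate 2, the shallowest R5159 library, was the lowest. The A05 stretch of genes 1901 to 3100 had a median log2 fold change of -0.88 in the pair, although only 59 of its 653 tested genes were called.

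Among shorter segments, genes 6101 to 6200 of C04 were low in R4210 alone, at 267.8 CPM, against 736.6 CPM in R5159 and 716.2 to 885.9 CPM in the other accessions. Genes 5301 to 5400 of C04 crossed the haplotypes, with 1550 CPM in R5159, 1388 CPM in R5044 and 1584 CPM in R4168, against 529.2 CPM in R4210, 240.2 CPM in R5161 and 349.6 CPM in R4817.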
